A study of Mus musculus with 2 samples.

Results

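The pacemaker channel genes Hcn2 and Hcn4 and the gap junction genes Gja1, Gja4, Gja5 and Gjc1 are 6 of the 21755 protein-coding genes on mouse chromosomes 1 to 19 and X. They were taken by name. The regions described are the CTCF peaks whose summit, the position of greatest enrichment, lay inside a gene record of GENCODE M21 or within 100 kb of its ends. These were 72 of the 44518 summits on assembled chromosomes in the optimal peak list, which the authors kept by the reproducibility test IDR. Heart tissue of B6NCrl mice at postnatal day 0 was immunoprecipitated with an antibody to CTCF and sequenced (ChIP-seq). The 2 libraries, replicate 1 and replicate 2, form 1 group with no other genotype or treatment. The labels number them as biological replicates and also give them the same tissue sample and donor, so whether they are separate samples cannot be told and their spread may be only technical. Sex was not collected. With 1 group there is no contrast and no p-value is given. Peak lists hold no expression of marker genes, so the heart label could not be checked against them.

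HCN channels open when the membrane is hyperpolarized and carry the inward current that starts each beat in pacemaker cells of the sinoatrial node. Connexins assemble into the gap junctions through which the impulse passes from cell to cell. CTCF is a zinc finger protein that binds an oriented DNA motif and halts cohesin, and chromatin loops often form between a pair of motifs that point toward each other. Signal below is the peak strength in the deposited lists, for which no unit is stated. The signal of the optimal list comes from both libraries together, and the signals of replicate 1 and replicate 2 come from their own lists, on their own scale. A core is a match of at most 2 mismatches to the 14-base CTCF core consensus, on either strand, within 50 bp of the summit. The sequences printed are those of the reference genome, not of the animals, with the core in capitals, read 5′ to 3′ on the strand that carries it.

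All 6 genes had an optimal summit within 100 kb of the record, as had 90.4% of all protein-coding genes. Hcn2 had 28, Gja4 12, Gjc1 11, Gja5 9, Hcn4 8 and Gja1 4, against a median of 7 over all protein-coding genes (quartiles 4 and 11). Counted per 100 kb of window, Hcn2 had 12.8 summits, Gja4 5.92, Gjc1 5.00, Hcn4 3.34, Gja5 2.41 and Gja1 1.78. The median over all protein-coding genes was 2.94, with quartiles of 1.47 and 4.76. The density at Hcn2 was above that of 99.9% of protein-coding genes, and the density at Gja1 was above that of 29.2%. The windows also differed in genes: the Hcn2 window held 15 protein-coding 5′ ends and the Gja1 window 1, that of Gja1 itself, against a median of 5 over all protein-coding genes. The part of gene density in the summit counts was not tested.

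**Figure D1:**
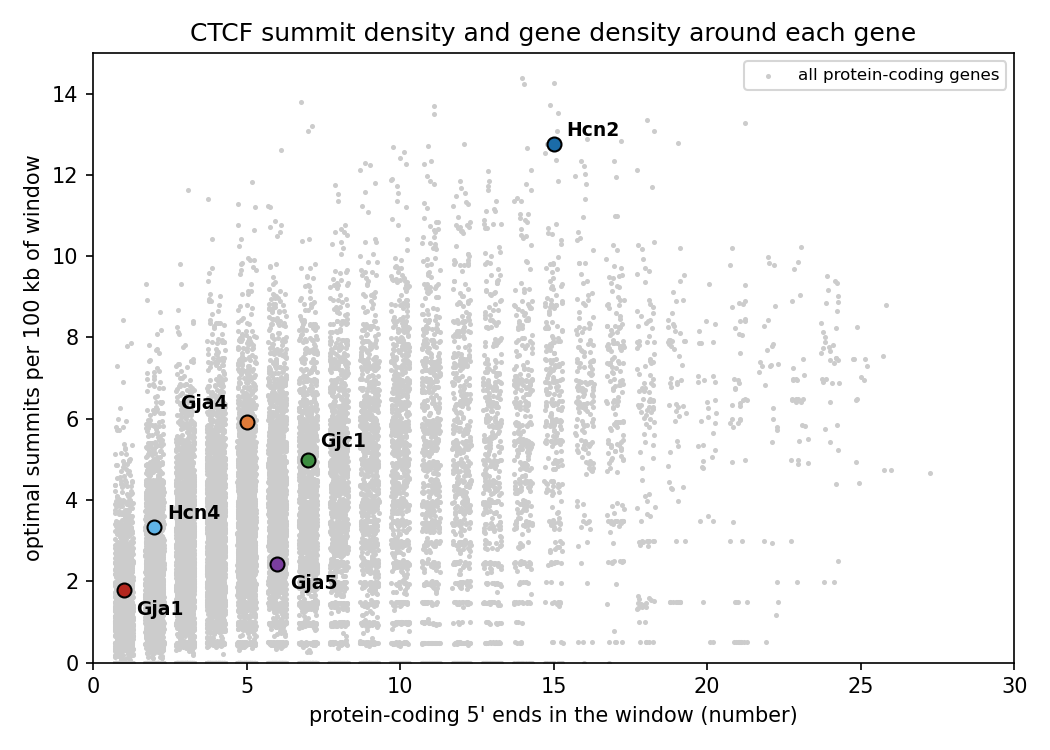
Each point is 1 protein-coding gene, with the number of protein-coding 5′ ends in its window (record plus 100 kb on each side, spread sideways for view) on the x axis and the optimal summits per 100 kb of that window on the y axis. Hcn2 lies near the top at 12.8 summits per 100 kb with 15 gene starts, and Gja1 near the lower left at 1.78 with 1; 5 genes with more than 30 gene starts lie beyond the axis.

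A summit lay within 10 kb of the 5′ end for 4 of the 6 genes, against 50.8% of all protein-coding genes. Gja4 and Gjc1 had a summit at the 5′ end itself, 6 bp and 47 bp inside the record. Hcn2 and Gja1 had their nearest summit upstream, at 4.01 kb and 4.09 kb. Hcn4 and Gja5 had none within 10 kb. The nearest summit to the Hcn4 5′ end lay 40.6 kb downstream, past the 3′ end of the gene, and the nearest to the Gja5 5′ end lay 18.1 kb upstream.

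**Figure D2:**
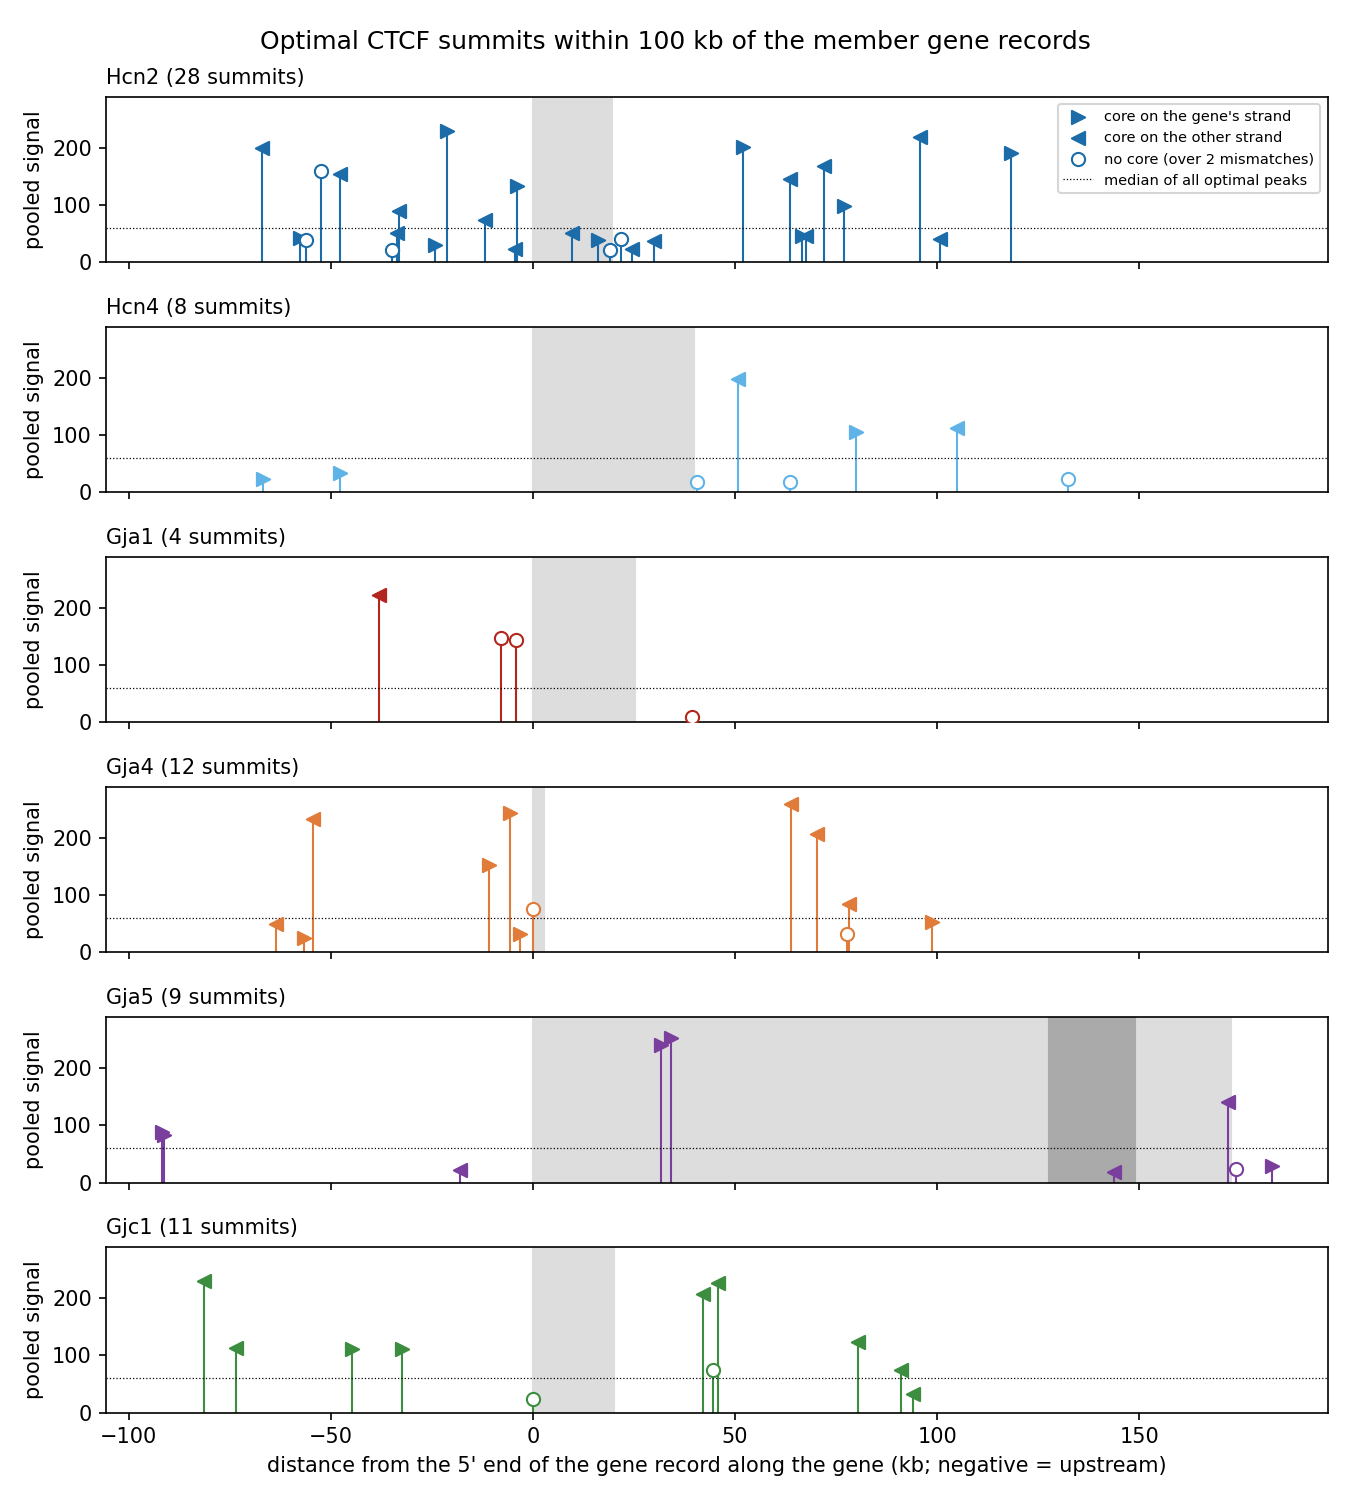
Each panel is 1 gene; the x axis is the distance from the 5′ end along the gene in kb and the y axis is the pooled signal of each optimal summit. Light grey is the GENCODE M21 record, dark grey the RefSeq record of Gja5, the dotted line the median signal of all optimal peaks (60.8); triangles point right for a core on the gene's strand and left for one on the other strand, and open circles have no core. No summit of Hcn4 or Gja5 lies within 10 kb of the 5′ end, and Gja1 has 3 strong summits upstream and 1 weak one downstream.

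Hcn4, the main pacemaker channel of the sinoatrial node (ENSMUSG00000032338.9, mm10 chr9:58823412-58863175, plus strand), had no optimal summit inside its record of 39.8 kb. The conservative list, the smaller of the authors' IDR lists, held 1 peak around Hcn4 that the optimal list lacked, with a signal of 12.8. Both upstream summits were below 60.8, the median signal of all optimal peaks. The nearer, 47.8 kb upstream and intergenic, had a signal of 34.5 (17.9 in replicate 1 and 13.9 in replicate 2), and the farther, at 66.9 kb, had 23.6 (11.4 in replicate 1 and 10.1 in replicate 2). Both carried a core of 2 mismatches on the plus strand, pointing toward the gene. On the far side, the strongest summit of the locus lay 11.0 kb beyond the 3′ end, with a signal of 198.8, which is above 92.9% of optimal peaks. It had 105 in replicate 1 and 91.0 in replicate 2, a mean of 98.2 ± 10.1 (SD, n = 2), and a core on the minus strand, pointing back toward the gene. These 2 summits, the nearest with a core on each side, form a convergent pair around Hcn4, 98.6 kb apart, with no other protein-coding 5′ end between them. With at most 1 mismatch allowed, or with the strongest peaks of replicate 1 alone, unfiltered by IDR, the flanks of Hcn4 were tandem. The core of the summit 47.8 kb upstream lay in sequence marked as repeat in the reference genome. The sequences of the 98.6 kb pair are shown because the pair encloses the gene (chr9:58775528-58775601, plus strand, and chr9:58874098-58874171, minus strand).
Hcn4 upstream: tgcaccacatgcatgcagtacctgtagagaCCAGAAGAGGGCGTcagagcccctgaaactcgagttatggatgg
Hcn4 downstream: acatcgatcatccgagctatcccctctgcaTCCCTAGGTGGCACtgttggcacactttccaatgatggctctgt

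The other downstream summits of Hcn4 included 4 in introns of Neo1, which encodes the receptor neogenin. A summit 80.0 kb from the Hcn4 5′ end had a signal of 105 (62.6 in replicate 1 and 43.6 in replicate 2). One at 104.9 kb had 113 (55.4 in replicate 1 and 57.9 in replicate 2). These 2 had cores with 0 mismatches, the first on the plus strand and the second on the minus strand, so that they point toward each other. The remaining 3 downstream summits, with signals of 17.3 to 22.7, had no core. Among them were the member summits with the highest and the lowest ratio of replicate 2 to replicate 1: the one 0.884 kb past the 3′ end had 5.56 in replicate 1 and 10.1 in replicate 2, and one in Neo1 had 13.1 in replicate 1 and 5.50 in replicate 2. Neither was in the conservative list.

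Within 10 kb of the Hcn4 5′ end, peaks were present only in the relaxed lists, which hold 300000 candidate peaks each, most of them not kept by IDR. The strongest lay 7.85 kb upstream with a pooled signal of 13.7 (8.75 in replicate 1 and 4.17 in replicate 2). It was also the strongest relaxed peak around Hcn4 outside the optimal and conservative lists, where the median was 6.40. Its core had 0 mismatches, on the minus strand, pointing away from the gene. It is shown because its match to the consensus is complete while its signal is low (chr9:58815535-58815608, minus strand).
Hcn4 upstream, relaxed list only: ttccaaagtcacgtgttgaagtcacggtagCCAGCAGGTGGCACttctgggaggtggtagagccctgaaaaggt

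Hcn2, the second pacemaker channel of the heart and also a neuronal channel (ENSMUSG00000020331.9, mm10 chr10:79716634-79736108, plus strand), had 13 summits upstream, 3 inside the record and 12 downstream. Their median signal was 50.7, against 60.8 over all optimal peaks, and 13 of the 28 reached that list median. All 28 were matched in both libraries and all 28 were in the conservative list. The strongest, 21.2 kb upstream and intergenic, had a signal of 229 (123 in replicate 1 and 107 in replicate 2). Nearer the gene, a summit 4.01 kb upstream had 133 (73.4 in replicate 1 and 58.8 in replicate 2), with a weaker one beside it at 4.43 kb that had 24.1 (10.7 in replicate 1 and 14.9 in replicate 2). The cores of this close pair lie on opposite strands, plus for the stronger and minus for the weaker.

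Inside Hcn2 the 3 summits were below the list median. The intronic ones lay 9.71 kb and 16.1 kb from the 5′ end with signals of 50.4 and 39.6, and the last, in a non-coding part of an exon at 18.9 kb, had 21.9 and no core. The nearest summits with a core beyond the ends of the record were the one 4.01 kb upstream, on the plus strand with 0 mismatches, and one 5.00 kb downstream, on the minus strand with 1 mismatch. The downstream one lay in an intron of Polrmt, the mitochondrial RNA polymerase gene, and had a signal of 23.1 (11.6 in replicate 1 and 12.5 in replicate 2). This convergent pair spans 28.5 kb and holds the 5′ end of Hcn2 alone, but its sides are unequal in signal. If summits below the list median are set aside, the downstream flank is a summit at 32.5 kb with a signal of 202 and a core on the plus strand, the pair is tandem (as it also is with flanks at least 5 kb from the record), and it holds the 5′ ends of Hcn2, Polrmt, Fgf22 and Rnf126. The sequences of the nearest pair and of the strongest summit are at chr10:79712577-79712650 (plus strand), chr10:79741048-79741121 (minus strand) and chr10:79695368-79695441 (plus strand).
Hcn2 upstream: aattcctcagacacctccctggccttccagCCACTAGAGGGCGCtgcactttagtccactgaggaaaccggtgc
Hcn2 downstream: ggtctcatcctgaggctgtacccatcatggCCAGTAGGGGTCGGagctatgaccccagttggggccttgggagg
Hcn2 strongest: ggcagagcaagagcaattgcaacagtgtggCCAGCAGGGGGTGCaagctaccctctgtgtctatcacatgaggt

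The rest of the Hcn2 window was spread over its neighbours. Of the 28 summits, 7 were promoter summits, within 1000 bp of the 5′ end of a gene of any type, and none of these belonged to Hcn2. They included summits at Madcam1, which encodes an adhesion molecule of blood vessels, with a signal of 159 (92.1 in replicate 1 and 67.3 in replicate 2), at Tpgs1, with 154 (94.5 in replicate 1 and 59.9 in replicate 2), and at Palm, which encodes paralemmin, with 98.6 (49.8 in replicate 1 and 47.1 in replicate 2). At Bsg, which encodes the membrane protein basigin, the promoter summit had 74.4, with 46.6 in replicate 1 and 22.5 in replicate 2. An intron of Palm held the second strongest summit of the window, with a signal of 219 (110.3 in replicate 1 and 107 in replicate 2). The summit farthest inside the window, at 98.9 kb, had 191, and the nearest one outside, at 101 kb, had 16.7.

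Gja1, the main connexin of working heart muscle (ENSMUSG00000050953.10, mm10 chr10:56377330-56402513, plus strand), had the fewest summits and the highest median signal of the 6 genes, 145. The upstream summits all lay in intergenic DNA. At 38.0 kb upstream the signal was 222 (117 in replicate 1 and 107 in replicate 2), a mean of 112 ± 7.30 (SD, n = 2). At 8.02 kb it was 147 (87.5 in replicate 1 and 60.9 in replicate 2), and at 4.09 kb 143 (81.5 in replicate 1 and 62.0 in replicate 2). The 2 summits closest to the gene were thus above 80.6% and 79.5% of optimal peaks while the best core of each had 3 mismatches. All optimal peaks with 3 mismatches had a median signal of 36.4, with quartiles of 21.6 and 75.9. The strongest member summit with 3 mismatches was not at Gja1 but at the Madcam1 promoter in the Hcn2 window, with 159.

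Downstream of Gja1 the optimal list was nearly empty. Its 1 summit there, 14.3 kb past the 3′ end, had a signal of 10.1, above 0.503% of optimal peaks, with 8.25 in replicate 2 and no peak of replicate 1 within 100 bp. Its best core had 6 mismatches and it was not in the conservative list. The next summit with a core on that side lay 438 kb from the gene, with a signal of 95.2 (54.2 in replicate 1 and 40.5 in replicate 2). On the upstream side, the nearest summit beyond the 3 already described lay 212.7 kb away. The core-bearing flanks of Gja1, both on the minus strand, form a tandem pair 502 kb apart with Gja1 as the only protein-coding gene whose 5′ end lies between them. If 3 mismatches are allowed, the summit 4.09 kb upstream becomes the near flank, on the plus strand, and the pair is convergent. The 2 core-bearing flanks are at chr10:56339260-56339333 and chr10:56840891-56840964, both on the minus strand.
Gja1 upstream: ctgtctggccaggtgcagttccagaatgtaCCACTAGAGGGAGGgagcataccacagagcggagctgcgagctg
Gja1 downstream: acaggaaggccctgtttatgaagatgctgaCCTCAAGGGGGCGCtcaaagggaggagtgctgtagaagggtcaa

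Gja5, the connexin of the atria and of the fast conduction system (ENSMUSG00000057123.14, mm10 chr3:96904693-97077416, plus strand), has a GENCODE M21 record of 172.7 kb. Only 1 of its 3 annotated transcripts starts at the 5′ end of the record. RefSeq places the gene at chr3:97032402-97053634, with a 5′ end 127.7 kb farther along. The strongest summits lay in the long first stretch, 34.2 kb and 31.7 kb from the M21 5′ end, with signals of 252.7 and 240.3. The first had 129.7 in replicate 1 and 122 in replicate 2, a mean of 126 ± 5.73 (SD, n = 2), and the second had 127 in replicate 1 and 112 in replicate 2. Both cores were on the plus strand, pointing toward the RefSeq gene, whose 5′ end was 93.5 kb and 96.0 kb away.

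On the other side of the RefSeq gene, 44.3 kb past its 5′ end, a summit had a signal of 141 (70.1 in replicate 1 and 68.8 in replicate 2) and a core on the minus strand. With the RefSeq record these were the nearest core-bearing flanks and formed a convergent pair. With the M21 record the flanks were weak summits farther out, 18.1 kb upstream with 22.1 (11.6 in replicate 1 and 8.87 in replicate 2) and 10.1 kb downstream with 28.9 (16.6 in replicate 1 and 10.7 in replicate 2), and their cores were divergent. A summit of 17.5 (9.21 in replicate 1 and 8.48 in replicate 2) lay inside the RefSeq record, in an intron by the M21 annotation. Within 10 kb of the M21 5′ end the strongest relaxed peak had a pooled signal of 9.58. Of the 9 summits, 8 were in introns of some gene and none was a promoter summit. Shown are the strongest summit, the upstream member of the RefSeq pair, and the downstream flank of the M21 record, whose core has 0 mismatches, at chr3:96938856-96938929 and chr3:97087491-97087564, both on the plus strand.
Gja5 strongest: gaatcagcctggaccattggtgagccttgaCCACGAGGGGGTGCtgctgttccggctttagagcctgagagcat
Gja5 downstream: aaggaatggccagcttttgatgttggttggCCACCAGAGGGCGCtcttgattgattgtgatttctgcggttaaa

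Gja4, an endothelial connexin of blood vessels (ENSMUSG00000050234.7, mm10 chr4:127311421-127314039, minus strand), is the shortest of the 6 genes and had the summit of highest signal among the 72. It lay 61.3 kb beyond the 3′ end, in intergenic DNA, with a signal of 259.6 (137 in replicate 1 and 121 in replicate 2), above 98.9% of optimal peaks. The mean of the libraries was 129 ± 11.0 (SD, n = 2). The next, 5.80 kb upstream, had 243.8 (131 in replicate 1 and 113 in replicate 2). The third, 54.5 kb upstream and nearest to the skin connexin gene Gjb5, had 233.8 (124 in replicate 1 and 110.0 in replicate 2).

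Upstream of Gja4, 3 summits in a row carried cores on the minus strand, the strand of the gene. They lay at 3.30 kb with a signal of 32.1 (20.1 in replicate 1 and 11.5 in replicate 2), at 5.80 kb with 243.8, and at 10.9 kb with 153 (81.8 in replicate 1 and 70.4 in replicate 2). The core nearest downstream was that of the strongest summit, on the plus strand. The flanking pair of Gja4 was therefore convergent, 67.2 kb apart, with no other protein-coding 5′ end between, and remained so with the summit at 5.80 kb in place of the weak one at 3.30 kb. The core at 3.30 kb lay in sequence marked as repeat in the reference genome, and the core at 5.80 kb did not. These sequences show the pair, chr4:127250164-127250237 (plus strand) and chr4:127317325-127317398 (minus strand).
Gja4 downstream: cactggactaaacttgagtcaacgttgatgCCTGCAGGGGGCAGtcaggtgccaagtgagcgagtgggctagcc
Gja4 upstream: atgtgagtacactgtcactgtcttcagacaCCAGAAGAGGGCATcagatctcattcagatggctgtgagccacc

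The summit at the Gja4 5′ end, 6 bp inside the record, had a signal of 75.9 (38.3 in replicate 1 and 36.3 in replicate 2), a mean of 37.3 ± 1.41 (SD, n = 2). Within 50 bp of the summit, the best matches to the consensus had 3 mismatches, at 2 places. The 250 bases upstream of the RefSeq 5′ end (GRCm38.p6, the same build as mm10, chr4:127314040-127314289, minus strand) are shown because the peak falls at this promoter. Capitals mark the only match of 3 mismatches in these 250 bases, whose core lies on the other strand.
Gja4 promoter: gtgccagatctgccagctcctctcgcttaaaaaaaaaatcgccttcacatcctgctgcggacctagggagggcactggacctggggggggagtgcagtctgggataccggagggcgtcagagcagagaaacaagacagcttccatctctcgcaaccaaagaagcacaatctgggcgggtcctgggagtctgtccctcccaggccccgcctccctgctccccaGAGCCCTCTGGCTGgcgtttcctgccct
A match of at most 3 mismatches occurred in 58.1% of 32851 RefSeq promoter windows of 300 bases, and one of at most 2 mismatches in 14.4%. The other RefSeq promoter windows found, those of Hcn2, Hcn4, Gja1 and Gja5, had best matches of 3 or 4 mismatches.

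Gjc1, the connexin of the nodes and of the early heart (ENSMUSG00000034520.14, mm10 chr11:102799579-102819700, minus strand), had 9 of its 11 summits at or above the list median. The summit nearest to the gene was at its own promoter, 47 bp inside the record, and was the weakest of the 11, with 23.7 (15.8 in replicate 1 and 7.41 in replicate 2) and a best match of 3 mismatches. All 6 downstream summits had their best match on the plus strand, toward the gene, and 5 of them had a core. The 3 nearest lay in Adam11, which encodes a brain protein of the ADAM family. At 21.9 kb from the gene the signal was 207 (104 in replicate 1 and 102 in replicate 2), at 24.5 kb 74.5 (45.1 in replicate 1 and 26.5 in replicate 2), and at 25.6 kb 226 (119 in replicate 1 and 109 in replicate 2).

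Upstream of Gjc1 the first summits lay 32.4 kb and 44.8 kb away in Eftud2, a gene of the splicing machinery, with signals of 112 (59.8 in replicate 1 and 51.2 in replicate 2) and 111 (65.6 in replicate 1 and 46.0 in replicate 2). Both cores were on the minus strand, toward Gjc1. Farther out, 2 summits with plus-strand cores lay at Gfap, the astrocyte filament gene, and the one 87 bp from its 5′ end was the strongest of the window, with 229.7 (107.7 in replicate 1 and 123 in replicate 2). The nearest core-bearing flanks of Gjc1 were convergent, 74.4 kb apart, with the 5′ ends of Gjc1 and Higd1b between. They are shown with the promoter match, at chr11:102777653-102777682 (plus strand), chr11:102852052-102852125 (minus strand) and chr11:102819645-102819674 (minus strand).
Gjc1 downstream: gacccgacCCAGCAGGGGGCAGtgtgatgc
Gjc1 upstream: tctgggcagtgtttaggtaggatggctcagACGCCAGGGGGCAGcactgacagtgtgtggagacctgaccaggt
Gjc1 promoter: ccatgattCCACCAGGCGGGGAtggttggc

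Over the 6 genes, the nearest core-bearing flanks were convergent at 4, Hcn2, Hcn4, Gja4 and Gjc1, tandem at Gja1 and divergent at Gja5. Over all protein-coding genes with such flanks, 29.0% were convergent, 45.8% tandem and 25.2% divergent, with a median distance of 116 kb between flanks. Of the cores outside the records and within 100 kb, 31 of 50 (62.0%) pointed toward the gene, against 47.7% over all protein-coding genes, where a core counts once for each gene near it. The counts by gene were 11 of 21 at Hcn2, 4 of 5 at Hcn4, 0 of 1 at Gja1, 7 of 10 at Gja4, 2 of 4 at Gja5 and 7 of 9 at Gjc1. This count was added after the values were seen, and, with 6 genes chosen by name, nothing particular to them is read from it.

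A core lay at 56 of the 72 member summits (77.8%), against 73.5% of all optimal peaks. Windows of the same size 1000 bp to the left and right of the member summits held a core in 2 and 4 of 72 (2.78% and 5.56%). Over all optimal peaks these shares were 2.79% and 2.94%. Cores were on the plus strand at 29 and on the minus strand at 27 summits, against 16519 and 16207 over all optimal peaks. A CpG, the dinucleotide that DNA methylation acts on, occurred in the core at 21 of 56 (37.5%), against 33.5% over all optimal peaks with a core. At least 7 of the 14 core bases were marked as repeats in the reference genome at 11 of 56 (19.6%). Over all optimal peaks with a core, 18.1% were so marked. The share of summits with a core varied by gene from 1 of 4 at Gja1 to 8 of 9 at Gja5.

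**Figure D3:**
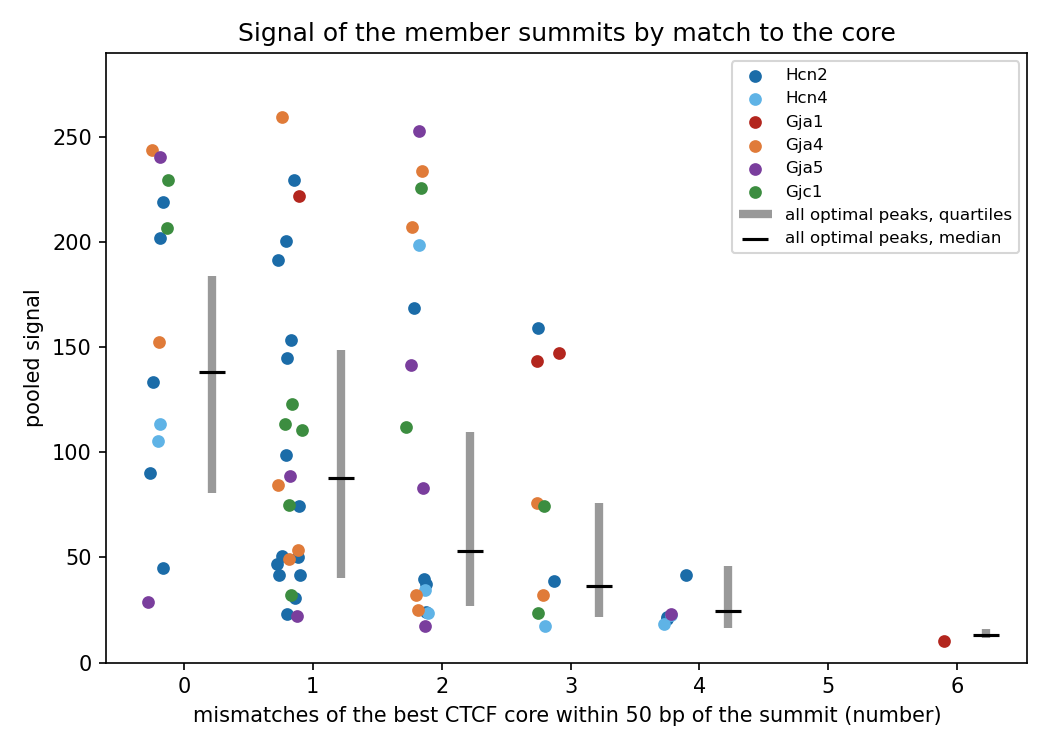
The x axis is the number of mismatches of the best core within 50 bp of the summit and the y axis is the pooled signal; coloured points are the member summits by gene, black dashes and grey bars the median and quartiles of all optimal peaks. The 2 Gja1 summits with 3 mismatches, at 147 and 143, lie above the upper quartile of all optimal peaks of that class (75.9). So does the strongest member summit of that class, the promoter summit at Madcam1 in the Hcn2 window, at 159.

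Member summits with a core had a median signal of 102 (56 summits), and those without had 27.9 (16 summits). Over all optimal peaks the medians were 78.7 with a core and 31.3 without. By mismatches, the member median was 153 at 0 mismatches (13 summits), 79.8 at 1 (26 summits), 82.8 at 2 (17 summits) and 74.5 at 3 (9 summits). The values for all optimal peaks were 138, 87.8, 52.9 and 36.4. All 72 member summits together had a median of 79.4, against 60.8 over all optimal peaks, and 16 of the 72 were in the top decile of the list and 3 in the bottom decile.

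Of the 72 member summits, 71 (98.6%) were matched within 100 bp in the lists of both libraries, against 97.1% of all optimal peaks. The exception was the weak downstream summit of Gja1. In the conservative list were 68 of the 72, against 89.4% of all optimal peaks, and those not in it were 2 at Hcn4, 1 at Gja1 and 1 at Gja5. Signals were lower in replicate 2: the median log2 ratio of replicate 2 to replicate 1 was -0.20 at the member summits, from -1.25 to 0.86, and -0.22 over all optimal peaks. Replicate 2 exceeded replicate 1 at 16 of the 71 matched member summits (22.5%), against 25.7% of all optimal peaks matched in both. Hcn2 held 9 of these 16 and 28 of the 71 matched summits. The lists give no read depth, and signals are therefore printed without a counting interval.

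**Figure D4:**
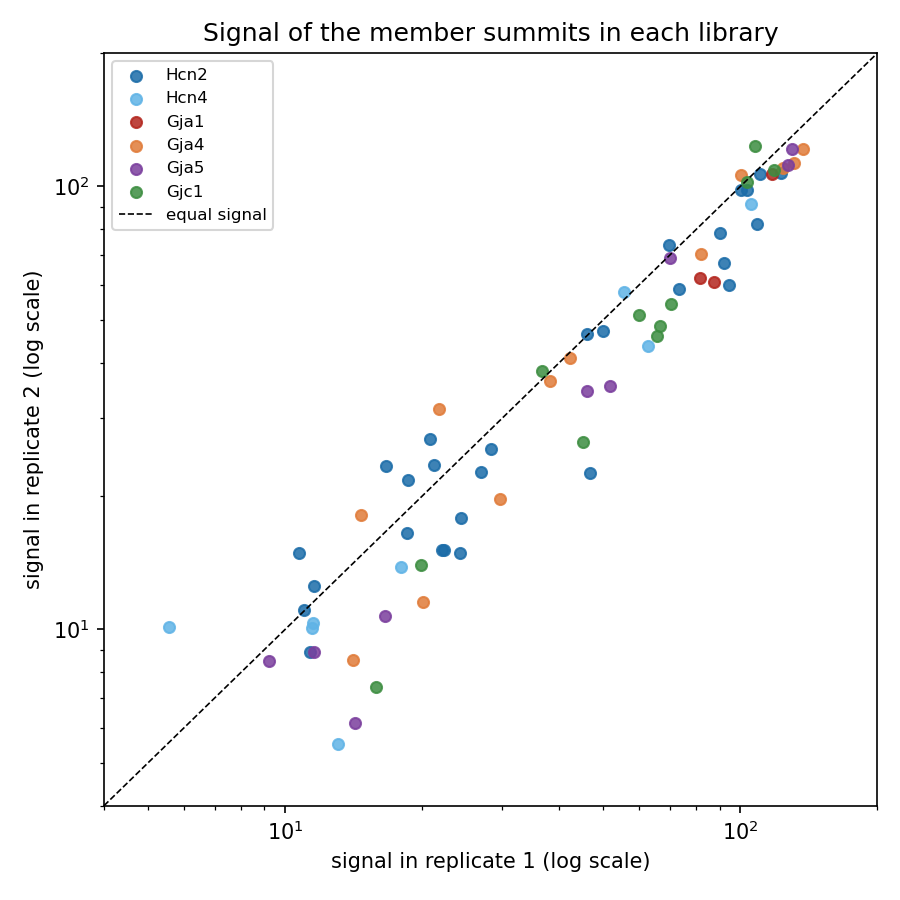
Signal of the 71 member summits matched in both libraries, replicate 1 on the x axis and replicate 2 on the y axis, both on log scales, coloured by gene; the dashed line marks equal signal. Most points lie below the line, 16 lie above it, and the highest and lowest ratios of replicate 2 to replicate 1 are both at Hcn4 (10.1 over 5.56 and 5.50 over 13.1).

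By annotation, 11 of the 72 member summits were at promoters (15.3%), 5 in coding exons (6.94%), 7 in other exon sequence (9.72%), 24 in introns (33.3%) and 25 between genes (34.7%). All optimal peaks were divided 14.1%, 2.38%, 4.77%, 43.7% and 35.0% over these classes. Only 2 of the 11 promoter summits, those of Gja4 and Gjc1, lay at the 5′ end of one of the 6 genes.

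The counts for lists of related genes are to be read against 50.8% of all protein-coding genes with a summit within 10 kb of the 5′ end and 90.4% with one within 100 kb of the record. The HCN channel gene Hcn3 had a summit within 10 kb of the 5′ end, with a signal of 82.8 at 18 bp (44.6 in replicate 1 and 36.6 in replicate 2). Of the 16 other connexin genes, 6 had a summit within 10 kb and 16 within 100 kb, with the strongest near Gjd4 (193.9). The pannexin genes, which encode channel proteins related in shape to connexins, had one within 10 kb at 0 of 3 and within 100 kb at 3 of 3.

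Of 15 genes of pacemaker identity, conduction and its currents, 12 had a summit within 10 kb and 14 within 100 kb. The strongest lay near Id2, a transcriptional inhibitor used in the conduction system (272.9, with 148 in replicate 1 and 127 in replicate 2). Shox2, a transcription factor gene of the sinoatrial node, had 0 within 100 kb. Of 10 genes of the intercalated disc, where gap junctions sit, 8 had a summit within 10 kb and 10 within 100 kb, led by Tjp1 (201, with 112 in replicate 1 and 88.5 in replicate 2) and the desmosome gene Dsg2 (148, with 73.1 in replicate 1 and 70.6 in replicate 2).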

How the data were processed

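CTCF ChIP-seq was done on heart tissue of newborn mice, in 2 libraries of 1 group. The authors deposited 5 peak lists with a signal per peak, on mm10 per the labels: 3 relaxed lists of 300000 peaks (replicate 1, replicate 2, both together), called against a control alignment not used here, and the optimal (44533 peaks) and conservative (43221 peaks) IDR lists made from them, per the text files deposited beside them. The sources used here name no aligner, peak caller or version: these are not given in them.

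Summits are the peak start plus the deposited offset, written 1-based. Distances were taken to GENCODE M21 gene records, with RefSeq records of GRCm38.p6 as an alternative. Cores were searched on both strands of the genome sequence, and summits with exactly 1 best core were used for flanks. Convergent means plus strand on the left and minus strand on the right. Replicate values are the nearest relaxed summit within 100 bp, unscaled, so SDs include differences in scale. Signals of weak relaxed peaks are the least certain. Of the 6 genes, 5 were in the RefSeq promoter table (Hcn2, Hcn4, Gja1, Gja4, Gja5). No test was run, since there is 1 group.

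The members and gene lists were chosen with earlier results of these data known. Named genes are the 6 members, the gene over or nearest to each summit they turn on, and, for each list, the 2 genes with the strongest summit within 10 kb, of which some are not reported here; other names were chosen after their values were seen. The core search, matching and window counts were tested on simulated data. Work was done in Python 3.11.15 with numpy 2.4.6, pandas 2.3.3 and pysam 0.24.0.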

Additional observations from a re-analysis of the deposited data

How the results depend on the processing

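No other setting turned the sign of a summary value, but orientation calls of single genes changed. The number of summits near the 6 genes was 40 with peaks at or above the list median signal, 45 within 50 kb and 112 within 200 kb, against 72. With a replicate left out, the peaks were the strongest of the other library's relaxed list, cut at the optimal list size (44533), without IDR. These settings change both the library and the filter, so they do not show the effect of a replicate alone. The core share was the same in the strongest peaks of either library, so each differing share counts as moved. It was 79.5% in the conservative list, 87.5% at or above the median signal, 79.7% to 79.7% with either replicate left out, 73.3% within 50 kb (just below the 73.5% of all optimal peaks), 77.7% within 200 kb, 78.1% from the 5′ end, 54.2% at 1 mismatch (42.4% of all optimal peaks), 90.3% at 3 (91.3% of all optimal peaks), 81.9% within 100 bp, 76.8% with RefSeq records and 75% without the summits of Hcn2. For the conservative list, the median signal cut, the single replicates and the 100 bp search, no share over all peaks is given. Those 4 settings are therefore not to be read against 73.5%. Over all optimal peaks the median signal was 78.7 with a core and 31.3 without, so a signal cut favours peaks with a core in any set. The share matched in both libraries was 100% at or above the median signal and within 250 bp. The median signal was 149.9 at or above the list median, 35.0 to 43.6 with either replicate left out (on each library's own scale), 68.0 within 200 kb and 86.5 without Hcn2. The RefSeq and Hcn2 settings were chosen after seeing the data. The number of convergent genes ran from 3 to 5. Hcn4 became tandem without replicate 2, where the relaxed peak 7.85 kb upstream entered, and at 1 mismatch, and Hcn2 became tandem with flanks at least 5 kb away. At 3 mismatches Gja1, and with RefSeq records Gja5, became convergent. At or above the median signal the count stayed at 4 with Hcn2 lost and Gja5 gained. The number of genes with a summit within 10 kb of the 5′ end ran from 3 without replicate 1 to 5 without replicate 2, against 4. The cause of these changes was not tested. Read depth is unknown, which limits the reading of weak peaks most. No paired analysis was possible because there is 1 group.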

Other observations

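The relaxed lists held more candidate peaks around the 6 genes that neither IDR list kept: 59 of 90 at Hcn2, 38 of 47 at Hcn4, 32 of 36 at Gja1, 33 of 45 at Gja4, 50 of 59 at Gja5 and 44 of 56 at Gjc1. Their median pooled signals were between 6.40 and 6.56. The strongest of all lay 49.5 kb upstream of Gja4, with 20.4 (14.4 in replicate 1 and 6.02 in replicate 2) and a core of 1 mismatch. Downstream of Gja5, one at 213.8 kb from the 5′ end had 12.2 (3.45 in replicate 1 and 8.23 in replicate 2), also with 1 mismatch. Around Gja1 the strongest such peak had 9.90 (4.38 in replicate 1 and 4.90 in replicate 2) and 4 mismatches.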
